A study of Homo sapiens with 28 samples.

Results

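The transcripts that 6 h of arsenic trioxide (ATO) moved in multiple myeloma cells were read from 8 of the 28 arrays of a study of 2 arsenic compounds. The 8 arrays were all those labelled as 6 h of ATO or as control 2, 1 of each for the human myeloma lines U266, MM.1s, KMS11 and 8226/S. The treated cells had received 2 µM ATO, an inorganic arsenical, for 6 h. Control 2 is the untreated array of the same line, taken at 0 h, so that 6 h in culture cannot be told apart from 6 h of ATO. The study also holds ATO at 24 and 48 h, darinaparsin (DAR, an organic arsenical made of a dimethylated arsenic joined to glutathione) at 6 and 24 h, and a separate untreated array of each line, control 1. DAR was given at 4 µM to U266, at 3 µM to MM.1s and KMS11 and at 2 µM to 8226/S.

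Trivalent arsenic binds to the thiol groups of cysteines, and a cell that takes it up turns on several protective programmes within hours. Metal-responsive transcription factor 1 switches on metallothioneins and the zinc exporter SLC30A1. NRF2, released from its inhibitor KEAP1, switches on glutathione and thioredoxin enzymes. Heat shock factor 1 switches on chaperones when proteins misfold, and ATF4 switches on amino acid import and synthesis when translation is held back. Myeloma cells are malignant plasma cells, which fold and secrete antibody at a high rate and depend on the transcription factors IRF4 and PRDM1. Of the markers of that identity, IRF4 gave signals of 6467 to 13176 and SDC1 of 5367 to 17852 over the 4 untreated arrays, while CD38 gave 820 in MM.1s and 614 in 8226/S but 40.5 in U266 and 12.5 in KMS11.

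The promoters of MT2A, MT1H, MT1X and HSPA6 are shown because they belong to genes with large rises and hold several copies of a metal or heat shock motif, and they were chosen for those matches. Other genes with large rises lack them: the promoters of LINC00304 and SRXN1 held none of the motifs searched, and 2 of the 6 called HSP70 and HSP110 genes held a heat shock pair. Each is the 250 bases before the annotated start, 5′ to 3′ on the gene's strand, from RefSeq in build GRCh38.p14. The capitals mark the core of the metal response element, TGCACNC or TGCGCNC on either strand, in MT2A (chr16:56608334-56608583, plus strand), MT1H (chr16:56669564-56669813, plus strand) and MT1X (chr16:56682220-56682469, plus strand). In HSPA6 (chr1:161524290-161524539, plus strand) they mark paired heat shock units, GAANNTTC or TTCNNGAA, 2 of which overlap.
MT2A: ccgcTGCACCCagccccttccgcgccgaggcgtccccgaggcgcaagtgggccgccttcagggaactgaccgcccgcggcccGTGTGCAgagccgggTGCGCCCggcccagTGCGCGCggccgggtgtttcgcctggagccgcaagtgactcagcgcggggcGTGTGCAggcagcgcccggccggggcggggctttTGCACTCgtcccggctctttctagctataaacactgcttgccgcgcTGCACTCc
MT1H: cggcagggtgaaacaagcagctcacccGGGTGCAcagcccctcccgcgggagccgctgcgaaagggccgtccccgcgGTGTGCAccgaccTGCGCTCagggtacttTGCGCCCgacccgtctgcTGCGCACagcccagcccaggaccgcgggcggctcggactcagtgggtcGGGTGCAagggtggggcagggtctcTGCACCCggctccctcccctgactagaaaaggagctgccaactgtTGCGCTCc
MT1X: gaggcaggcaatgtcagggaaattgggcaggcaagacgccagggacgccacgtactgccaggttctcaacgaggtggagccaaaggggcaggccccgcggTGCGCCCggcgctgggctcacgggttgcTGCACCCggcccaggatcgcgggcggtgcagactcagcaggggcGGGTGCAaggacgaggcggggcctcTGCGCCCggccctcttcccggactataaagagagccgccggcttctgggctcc
HSPA6: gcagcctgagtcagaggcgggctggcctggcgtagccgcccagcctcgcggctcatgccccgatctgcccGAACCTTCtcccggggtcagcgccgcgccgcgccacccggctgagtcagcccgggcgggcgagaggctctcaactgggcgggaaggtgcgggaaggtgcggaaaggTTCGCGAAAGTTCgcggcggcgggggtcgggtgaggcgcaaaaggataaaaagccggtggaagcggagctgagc
The metal core stood 7 times in MT2A, 8 times in MT1H and 4 times in MT1X, and the heat shock pair 3 times in HSPA6. At least 1 metal core was found in 24.7% of 27305 promoters of this length and at least 4 in 0.37%, and at least 1 heat shock pair in 11.7%. The metal core also stood 4 times in the promoter of INSIG1 and 3 times in that of HK2, both of which fell, and it was found in 30.7% of the promoters of genes that rose, in 37.3% of those of genes that fell and in 31.6% of those of all tested genes. The core of the antioxidant response element, TGACNNNGC, was found in 48 of the 205 promoters of genes that rose (23.4%), in 10 of the 126 of genes that fell (7.9%) and in 12.1% of the promoters of all tested genes. These matches are descriptions of the letters and not of binding.

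Signals are intensities scaled by the authors' software so that each array has a trimmed mean near 500. A change is the difference of log2(signal + 29) between the treated and the untreated array of a line, averaged over the 4 lines, and a fold change is that value raised back from the log2 scale, which understates the change of dim genes. A gene was called when limma's moderated test, with the cell line as a block, gave a Benjamini-Hochberg adjusted p under 0.05 over all probe sets, and "rose" and "fell" are used for called genes. Of 15438 genes tested, 397 (2.57%) were called. Of these, 250 rose (1.62% of all tested) and 147 fell (0.952%), and the median change over all tested genes was 0.00. Among the rises 104 exceeded 1 log2 unit, 21 exceeded 2 and 11 exceeded 3. Among the falls 36 exceeded 1 unit and 4 exceeded 2. For some lists the number of members at an unadjusted p under 0.05 is also given. The share of all tested genes under that threshold is not given, so no result is read from those numbers.

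Every called gene moved in 1 direction in the 4 lines. For 93 of the 250 rises the 4 treated signals all lay above the 4 untreated ones, and for 28 of the 147 falls they all lay below. Over all tested genes such separation held for 254 above (1.65%) and 159 below (1.03%). The median rise was 0.73 in U266, 0.82 in 8226/S, 0.99 in MM.1s and 1.16 in KMS11, and the largest rise of a gene was in KMS11 for 101 genes and in MM.1s for 89. Other probe sets of the genes that rose had the same sign in 257 of 269 cases and those of the genes that fell in 164 of 183, with none called the other way. Of these other probe sets, 92 of the 269 and 47 of the 183 were themselves called in the same direction. Genes described here with another probe set of the opposite sign, not called, included GCLC, SQSTM1, IDI1, CASP10, BUB1, KLF13, PFKP, TOP1MT and GRAMD1A. The share with the same sign was not taken over all tested genes. The share of all tested genes that were higher, or lower, in each of the 4 lines is not given either. Counts of list members that moved in 1 direction in the 4 lines therefore stand below without a background. Each line has 1 array per condition, so p-values measure the spread between lines, and the number of calls depended on how that spread was estimated. It was 2 with no variance trend in limma, 2 with no term for line, and 785 when the 16 arrays of control 2 and of ATO at 6, 24 and 48 h shared the spread. Leaving out KMS11 left 61 calls, MM.1s 111, 8226/S 151 and U266 220. Against control 1, 15 of the 106 called genes described here had the opposite sign, namely WARS1, PSMC1, PSMC2, PSMC6, FADD, FOS, PFKFB4, PFKP, FASN, SQLE, NSD2, BCL2L1, CASP10, RARA and RHOU. Of these, PSMC2, PSMC6, FASN and CASP10 were called in that opposite direction. Another 15 kept their sign and lost their call, namely CEBPG, PSMD11, MIR210HG, HK2, ACLY, GRAMD1A, GLDC, IRF4, PRDM1, ITGA4, KLF13, MRPL18, CSNK1E, PIR and HSPA4.

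**Figure D1:**
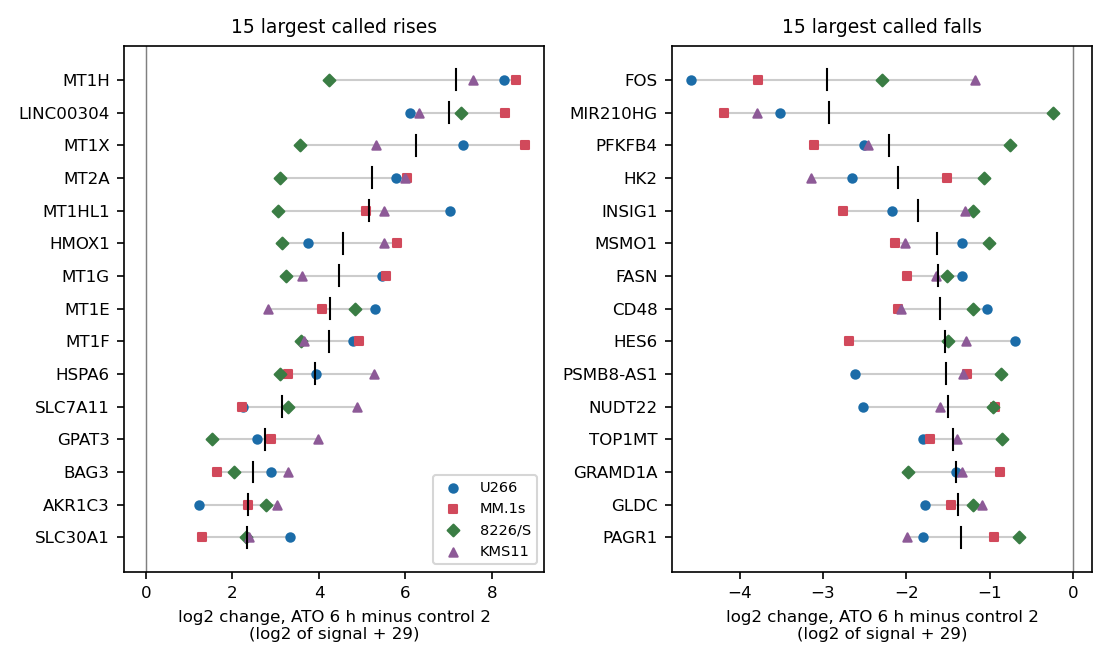
Change in each line for the 15 genes with the largest called rises (left) and the 15 with the largest called falls (right). Points are the 4 lines, black bars the mean over lines, and the horizontal axis is the difference of log2(signal + 29) between 6 h of ATO and control 2. Metallothioneins fill 7 of the 15 rows of rises, with the smallest change in 8226/S for 6 of them.

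Metallothioneins, small cysteine-rich proteins that bind zinc, cadmium and arsenic, made up 7 of the 11 rises of over 3 log2 units, the others being LINC00304, HMOX1, HSPA6 and SLC7A11. MT2A, the most widely expressed member, gave signals of 571, 545, 3397 and 416 in untreated U266, MM.1s, 8226/S and KMS11 and of 32721, 37641, 29389 and 28111 after 6 h of ATO. The treated values were close to each other, and the untreated value of 8226/S stood above the other 3. The mean change was 5.22 (SE 0.42, adjusted p = 0.00158), a 37.3-fold rise, with 3.10 in 8226/S against 5.77 to 6.04 in the other lines. MT1H gave 46.7, 37.3, 1140 and 43.9 untreated, and 23339, 25098, 21932 and 13701 after ATO, a change of 7.16 (SE 0.59, adjusted p = 0.00163). The untreated 8226/S array was again the high one, and its change of 4.23 was the smallest of the 4.

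Of 8 tested metallothioneins 7 rose, and the median change of the list was 4.82. MT1X changed by 6.25 (SE 0.67), MT1HL1 by 5.17 (SE 0.48), MT1G by 4.47 (SE 0.36), MT1E by 4.26 (SE 0.33) and MT1F by 4.23 (SE 0.23). MT1E differed from the others in its order of lines, with the largest change in U266 (5.30) and the smallest in KMS11 (2.83). All 7 probe sets carry the suffix that Affymetrix gives to probes that can bind several related sequences, so the members of this family cannot be told apart by them. The 7 calls were also made without any 1 of the 4 lines, and 1 of them, MT1F, with no variance trend or with no term for line.

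SLC30A1, which exports zinc from the cytosol, was the only called rise among 23 tested genes of zinc transport and metal sensing. Its signal went from 762 to 7954 in U266, from 4215 to 10361 in MM.1s, from 1031 to 5224 in 8226/S and from 2109 to 11087 in KMS11. The 4 treated values lay above the 4 untreated ones, and the change was 2.33 (SE 0.26, adjusted p = 0.00595), a 5.02-fold rise. SLC39A10, which carries zinc into the cell, fell by 1.18 (SE 0.22, adjusted p = 0.0392), from 2429 to 929 in 8226/S and from 209 to 171 in U266, the line where it was dimmest. The median of the list was -0.04, near that of all genes.

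HMOX1, the heme oxygenase that opens heme and frees its iron, rose 23.4-fold. Its signal was 1992, 513, 3517 and 587 in untreated U266, MM.1s, 8226/S and KMS11 and 27208, 30249, 31358 and 27792 after ATO. The treated arrays spanned a narrow range while the untreated ones differed several-fold, so the change was larger in MM.1s (5.80) and KMS11 (5.50) than in U266 (3.75) and 8226/S (3.15), with a mean of 4.55 (SE 0.39, adjusted p = 0.00182). Of 16 tested genes of heme and iron handling 3 rose. The others were SLC48A1, a heme transporter of the lysosome, by 1.53 (SE 0.20), and ABCB6, a porphyrin transporter, by 1.40 (SE 0.23).

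Of 27 tested enzymes and transporters that NRF2 controls 13 rose, 21 had a higher value in each of the 4 lines, and the median change was 0.82. The count was 4 without KMS11, 6 without MM.1s, 8 without 8226/S and with the mean of all probe sets of a gene, and 9 without U266. SLC7A11, the cystine importer that feeds glutathione synthesis, went from 1414, 365, 295 and 145 in U266, MM.1s, 8226/S and KMS11 to 6825, 1797, 3126 and 5082. Its change of 3.16 (SE 0.38, adjusted p = 0.00824) was led by KMS11 with 4.88. GCLM, the modifier subunit of the enzyme that commits cysteine to glutathione, went from 3242, 655, 2227 and 1587 to 9083, 6586, 8488 and 9046, a change of 2.29 (SE 0.24, adjusted p = 0.00531). In both genes the treated arrays all lay above the untreated ones, whereas GCLC, the catalytic subunit, rose by 0.78 (SE 0.12) with overlapping groups. Of the 2 other tested probe sets of GCLC, 1 had the same sign.

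SRXN1, which repairs over-oxidised peroxiredoxins, went from 1050, 1415, 2317 and 1366 to 3796, 10278, 4932 and 8685 in U266, MM.1s, 8226/S and KMS11. The change was 2.10 (SE 0.25, adjusted p = 0.00824), with 8226/S lowest at 1.08. The quinone reductase NQO1 rose by 2.03 (SE 0.28), thioredoxin reductase TXNRD1 by 1.12 (SE 0.19) and glutathione reductase GSR by 0.95 (SE 0.19), and for each of them the largest change was in MM.1s. AKR1C3, a reductase of ketones and aldehydes, rose by 2.35 (SE 0.27), ME1, a source of NADPH, by 1.51 (SE 0.19), PIR by 1.40 (SE 0.18) and OSGIN1 by 1.90 (SE 0.29). AKR1C3 was dim in untreated KMS11, at 13.6, and reached 318 there.

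Of 11 tested regulators of NRF2 itself 4 rose. SQSTM1, which binds KEAP1 and carries cargo to autophagy, went from 8764, 4655, 5713 and 3846 to 20556, 24666, 13270 and 19358 in U266, MM.1s, 8226/S and KMS11, a change of 1.79 (SE 0.21, adjusted p = 0.00678) with no overlap. MAFG, a DNA-binding partner of NRF2, rose by 1.21 (SE 0.15), and BACH1, the repressor that competes with it at HMOX1, by 1.12 (SE 0.19). KEAP1 rose by 0.76 (SE 0.15, adjusted p = 0.0473), and U266 contributed least to it with 0.14. Among 15 tested genes for arsenic uptake, methylation and export, limma called none, and at an unadjusted p under 0.05 it gave 1 lower and 0 higher.

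Heat shock genes rose across several chaperone classes. HSPA6, an HSP70 gene that is almost silent without stress, went from 123, 53.4, 171 and 136 to 2305, 775, 1681 and 6357 in U266, MM.1s, 8226/S and KMS11. No treated value came near an untreated one, and the change was 3.90 (SE 0.32, adjusted p = 0.00158), a 14.9-fold rise with KMS11 highest at 5.27. A probe set that the platform table assigns to several HSP70 genes at once, 200800_s_at, went from 265.6, 344, 538 and 115 to 9786, 12612, 11933 and 5354. Its change of 4.94 (SE 0.15, adjusted p = 5.02e-06) had the smallest adjusted p of all probe sets, and no single gene can be given to it. Of 12 HSP70 and HSP110 genes with a probe set of their own 6 rose, with a list median of 0.53, among them HSPH1 by 1.43 (SE 0.11), HSPA1L by 2.27 (SE 0.33) and HSPA4 by 0.61 (SE 0.10).

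Of 35 co-chaperones, small heat shock proteins and HSP90 genes 14 rose, with a median of 0.46. BAG3, which links HSP70 to selective autophagy, went from 1375, 1445, 2107 and 966 to 10419, 4607, 8705 and 9626 in U266, MM.1s, 8226/S and KMS11. The treated values all lay above the untreated ones, and MM.1s was the lowest of them, with a change of 1.65 against 3.28 in KMS11 and a mean of 2.46 (SE 0.24, adjusted p = 0.00344). DNAJB1, a J-domain partner of HSP70, had the same order with MM.1s lowest, from 3904 to 7901 there and from 5211 to 18936 in U266, and rose by 1.64 (SE 0.15, adjusted p = 0.00261). DNAJA1 rose by 1.10 (SE 0.08), DNAJB4 by 1.71 (SE 0.15) and the small heat shock protein HSPB1 by 1.94 (SE 0.34), of which MM.1s showed 3.57.

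Genes of the integrated stress response, through which ATF4 acts, rose in part. Of 25 tested 6 rose, and the list median of 0.71 ranged from 0.12 in MM.1s to 1.01 in KMS11. TRIB3, a pseudokinase that feeds back on ATF4, went from 1873, 2276, 1992 and 1658 to 7319, 4358, 5154 and 7786 in U266, MM.1s, 8226/S and KMS11, a change of 1.61 (SE 0.19, adjusted p = 0.00792) with MM.1s lowest at 0.93. SLC3A2, the shared heavy chain of amino acid exchangers, rose by 0.99 (SE 0.12), and the transcription factors CEBPB and CEBPG by 1.07 (SE 0.18) and 0.89 (SE 0.15). DDIT3, the death-linked factor of this pathway, went from 667, 635, 235 and 583 to 1242, 646, 653 and 1383 and missed the threshold (0.87, SE 0.22, adjusted p = 0.0821). ATF3, from 2503, 3161, 1041 and 640 to 2849, 6545, 1332 and 10200, did so as well (1.38, SE 0.52, adjusted p = 0.214). For ATF3 the 4 lines parted, with 3.93 in KMS11, 1.04 in MM.1s, 0.35 in 8226/S and 0.18 in U266.

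Of 23 genes of amino acid synthesis and tRNA charging 2 rose, CTH, which makes cysteine from cystathionine, by 1.83 (SE 0.20, adjusted p = 0.00568) and WARS1, the tryptophan tRNA ligase, by 0.76 (SE 0.13). Against control 1 the change of WARS1 was -0.16. Of 13 amino acid transporters 4 rose, namely SLC7A11, SLC3A2, the glycine transporter SLC6A9 by 1.45 (SE 0.26) and the leucine transporter SLC7A5 by 0.70 (SE 0.14). In MM.1s SLC7A5 changed by 0.17, from 3124 to 3505.

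ZFAND2A, an arsenite-inducible protein that binds the proteasome, went from 606, 856, 566 and 1147 to 2175, 3717, 2568 and 6531 in U266, MM.1s, 8226/S and KMS11. The lines were close to each other, between 1.79 and 2.48, and the mean was 2.12 (SE 0.13, adjusted p = 0.000457). Of 27 tested genes of autophagy and ubiquitin 8 rose, including the autophagosome proteins MAP1LC3B by 1.09 (SE 0.11) and GABARAPL1 by 1.74 (SE 0.29) and the unfoldase VCP by 0.58 (SE 0.09). In the same list UBE2S, a conjugating enzyme of mitosis, fell by 0.82 (SE 0.09, adjusted p = 0.00678). Of 32 proteasome subunits 4 rose, PSMD11 by 0.83 (SE 0.11), PSMC6 by 0.74 (SE 0.14), PSMC1 by 0.60 (SE 0.10) and PSMC2 by 0.56 (SE 0.09). The subunits had a median change of 0.39, and 24 of the 32 were higher in each of the 4 lines, a count with no share over all tested genes beside it. Against control 1 the median was -0.33, with 2 of the 32 called higher and 15 lower.

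Of 25 tested genes of folding in the endoplasmic reticulum (ER) and of the unfolded protein response 2 rose and 1 fell, and the median was -0.13. DNAJB9, a J-domain partner of the ER chaperone BiP, rose by 0.49 (SE 0.08), with 0.48 to 0.51 in the 4 lines, and SELENOK, a selenoprotein of the ER membrane, rose by 0.46 (SE 0.09). MANF, a secreted ER stress protein, fell by 0.70 (SE 0.13, adjusted p = 0.0356). Whether the ER list and the cytosolic lists differ was not tested.

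**Figure D2:**
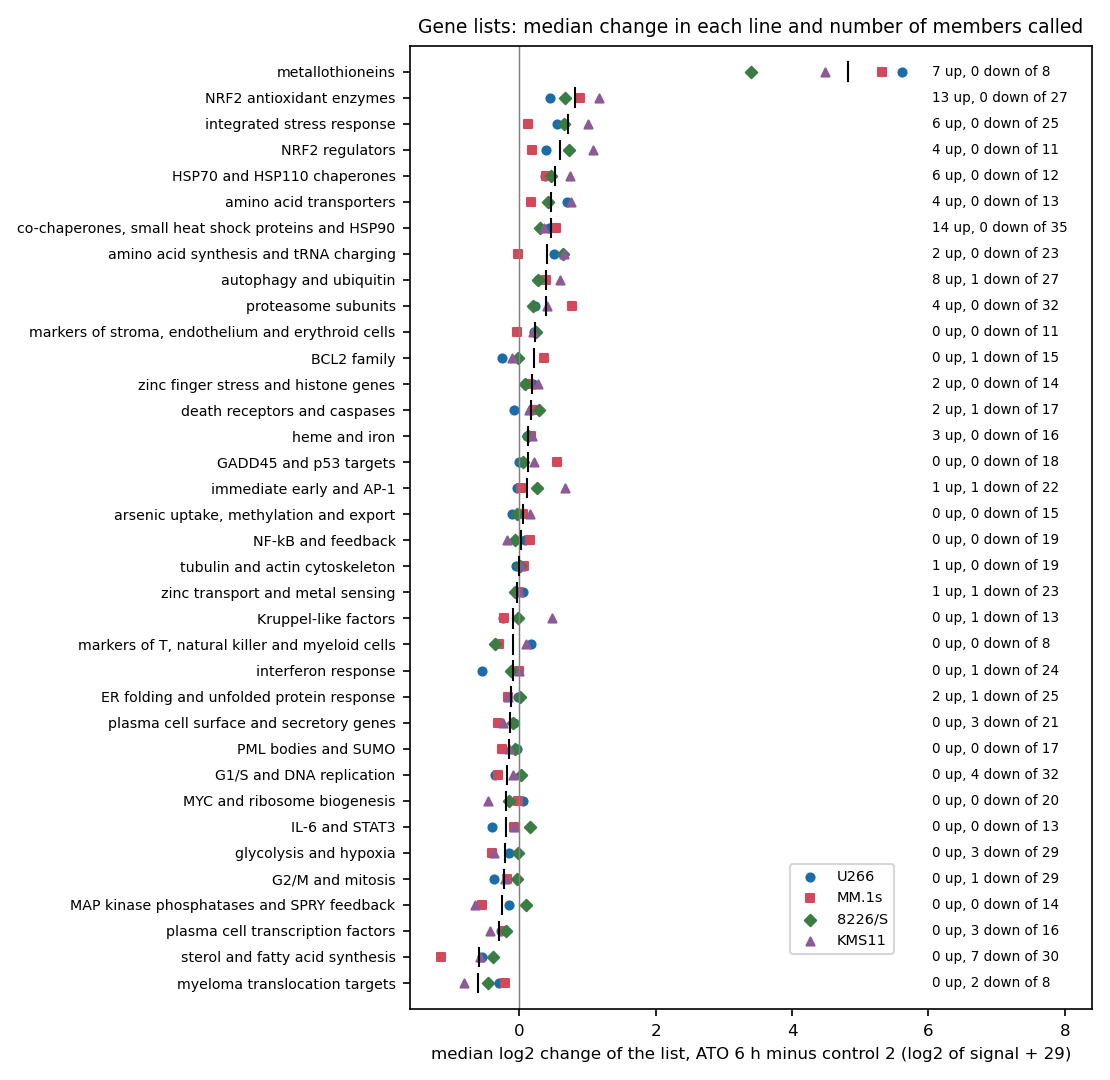
Median change of each gene list in the 4 lines (points) and over the mean of the lines (black bars), as the difference of log2(signal + 29) between 6 h of ATO and control 2, with the number of tested members called up and down at the right. The metallothioneins stand far to the right at a median of 4.82, and the sterol and fatty acid list lies left of 0 in each line.

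Genes of sterol and fatty acid synthesis made up the list with most falls. Of 30 tested 7 fell, 22 were lower in each of the 4 lines, and the median was -0.59, from -0.39 in 8226/S to -1.14 in MM.1s. INSIG1, which holds the sterol sensor SCAP in the ER and is itself a target of SREBP, went from 8208, 13421, 8245 and 13303 to 1801, 1951, 3565 and 5385 in U266, MM.1s, 8226/S and KMS11. Treated values all lay below untreated ones, and the gene fell by 1.86 (SE 0.23, adjusted p = 0.00915), a 3.63-fold fall. MSMO1, a C4 sterol oxidase, went from 8418, 9922, 4111 and 6626 to 3326, 2229, 2026 and 1614 and fell by 1.63 (SE 0.18, adjusted p = 0.00593). FASN, the fatty acid synthase, fell by 1.62 (SE 0.12, adjusted p = 0.000948) with a fall of between 1.33 and 1.99 in each of the 4 lines, from 2766 to 1079 in U266 and from 10738 to 3739 in 8226/S.

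Among the other members, HMGCS1, which makes HMG-CoA, fell by 1.01 (SE 0.16), IDI1, the isopentenyl isomerase, by 1.30 (SE 0.20), SQLE, squalene epoxidase, by 1.07 (SE 0.13) and ACLY, the source of cytosolic acetyl-CoA, by 0.60 (SE 0.12). For these 4 the change was largest in MM.1s. The sterol element TCACNCCAC was found, on either strand, in 0.9% of all promoters of 250 bases, and in none of the 5 called members that have a promoter in the table. This fall depends on the untreated array used: against control 1 the list median was -0.06, with 8 of 30 called higher and 9 lower. INSIG1 gave 3435, 8330, 6325 and 7346 in the control 1 arrays, lower than in control 2 in each line. Against control 1 INSIG1, MSMO1, IDI1 and HMGCS1 were still called lower. SQLE and ACLY lost their calls, and FASN was called higher, by 1.11 (adjusted p = 0.000522).

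Of 29 genes of glycolysis and hypoxia 3 fell, and 12 were lower in the 4 lines. HK2, the inducible hexokinase, went from 1560, 2436, 2347 and 3153 to 225, 837, 1102 and 330 in U266, MM.1s, 8226/S and KMS11, and fell by 2.09 (SE 0.30, adjusted p = 0.0178), a 4.27-fold fall. PFKFB4, which sets the level of an activator of phosphofructokinase, went from 1386, 1230, 256 and 1052 to 219, 117, 140 and 167 and fell by 2.21 (SE 0.33, adjusted p = 0.0198). Both changed least in 8226/S, where PFKFB4 was dim before treatment. PFKP, a phosphofructokinase, fell by 0.92 (SE 0.16), while its 1 other tested probe set had the opposite sign and was not called. MIR210HG, the host transcript of a hypoxia-induced microRNA, went from 433, 2040, 31.8 and 699 to 11.5, 84.9, 22.5 and 23.8 and fell by 2.93 (SE 0.57, adjusted p = 0.0422). In 8226/S, where it was near the bottom of the scale before treatment, it changed by -0.24. The falls of MIR210HG, HK2, PFKFB4 and PFKP rest on control 2, and none of them was called against control 1. In the control 1 arrays MIR210HG gave 27.0, 81.8, 12.7 and 22.7, close to the treated values, and its change was -0.02 (adjusted p = 0.968). That of HK2 was -0.58 (adjusted p = 0.159). PFKFB4 and PFKP took the opposite sign, with changes of 0.40 (adjusted p = 0.331) and 0.25 (adjusted p = 0.249).

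FOS, an immediate early gene and a subunit of the AP-1 factor, showed the largest fall of all called genes. It went from 1996, 820, 424 and 135 to 55.8, 32.7, 63.6 and 43.5 in U266, MM.1s, 8226/S and KMS11, and fell by 2.96 (SE 0.48, adjusted p = 0.0258), from 1.18 in KMS11 to 4.58 in U266. Its level in the untreated arrays was not stable: control 1 gave 15.3, 11.9, 142 and 32.2 in U266, MM.1s, 8226/S and KMS11, below the treated values in 3 lines and above in 8226/S, and against that control the change was 0.22. Of 22 tested immediate early and AP-1 genes 1 other was called, IER5, which rose by 0.82 (SE 0.17).

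Of 16 transcription factors of plasma cell identity 3 fell, with a list median of -0.30. IRF4 went from 9164, 13176, 6467 and 12138 to 5152, 4910, 3651 and 5038 in U266, MM.1s, 8226/S and KMS11, with no overlap, and fell by 1.08 (SE 0.12, adjusted p = 0.00568). Against control 1 its change was -0.35 (adjusted p = 0.0821). PRDM1, which fixes the plasma cell state, fell by 0.75 (SE 0.11) and MEF2C by 0.70 (SE 0.11). Of 21 surface and secretory genes 3 fell, TNFRSF17 (BCMA, a survival receptor) by 0.69 (SE 0.10), the adhesion receptor ITGA4 by 1.09 (SE 0.20) and MZB1, a folding factor of antibody, by 0.54 (SE 0.11). SDC1, the syndecan that marks plasma cells, missed the threshold with a change of -0.70 (SE 0.15, adjusted p = 0.0586).

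CD48, an adhesion molecule of lymphocytes, went from 10310, 16859, 841 and 6932 to 5042, 3904, 352 and 1634 in U266, MM.1s, 8226/S and KMS11 and fell by 1.60 (SE 0.19, adjusted p = 0.00785). The groups overlap because the line with the lowest signal, 8226/S, lies below the treated values of the other lines, although each line fell. Of 8 tested targets of myeloma translocations 2 fell, CCND1 by 0.92 (SE 0.16) and NSD2 by 0.79 (SE 0.14). CCND1 was brightest in U266, where it went from 6890 to 3298, and NSD2 in KMS11, where it went from 10533 to 4420. Against control 1 CCND1 was still called lower, by 0.86, while NSD2 took the opposite sign (0.42, adjusted p = 0.118). MAF, brightest in MM.1s and 8226/S, went from 72.6, 12172, 10886 and 6185 to 64.5, 9532, 5087 and 1292 and was not called (-0.95, SE 0.29, adjusted p = 0.142).

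MYC was not called either (-1.31, SE 0.40, adjusted p = 0.141). Its signal was 301, 11459, 17107 and 11060 in untreated U266, MM.1s, 8226/S and KMS11 and 94.5, 11042, 11170 and 1218 after ATO. The lines differed widely, from -0.05 in MM.1s to -3.15 in KMS11. Of 20 genes of MYC and ribosome biogenesis limma called none, and at an unadjusted p under 0.05 it gave 1 higher and 4 lower. Replication and division genes had few calls: 4 of 32 of the G1/S list fell, MCM7 by 0.85 (SE 0.11), UNG by 0.79 (SE 0.15), GINS1 by 0.49 (SE 0.10) and CCND1 as given above, and 1 of 29 of the G2/M list, the checkpoint kinase BUB1, by 0.61 (SE 0.11). These lists had medians of -0.18 and -0.22.

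Cell death and DNA damage genes had few calls. Of 15 tested BCL2 family members BCL2L1, which encodes the survival protein BCL-XL, fell by 0.98 (SE 0.17, adjusted p = 0.0331), with 0.22 in 8226/S. PMAIP1 (NOXA) went from 1862, 856, 2938 and 1655 to 1553, 883, 5268 and 7402 in U266, MM.1s, 8226/S and KMS11 and was not called (0.69, SE 0.33, adjusted p = 0.318). Among 17 death receptor and caspase genes TNFRSF1A rose by 1.10 (SE 0.21) and FADD by 0.68 (SE 0.14), while CASP10 fell by 0.75 (SE 0.13). Against control 1 TNFRSF1A was still called higher, by 1.57. BCL2L1 (0.32) and FADD (-0.13) took the opposite sign there, and CASP10 was called higher, by 0.85 (adjusted p = 0.025).

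Of 18 genes of the GADD45 and p53 list limma called none, with 5 higher and 0 lower at an unadjusted p under 0.05, a count without a background over all tested genes. CDKN1A, which holds the cell cycle, went from 2681, 2065, 1122 and 204 to 1643, 2830, 900 and 1334 in U266, MM.1s, 8226/S and KMS11, up in KMS11 and MM.1s and down in the other lines (0.50, SE 0.44, adjusted p = 0.613). Without KMS11 its change was -0.19. GADD45A was higher after ATO mostly in KMS11, from 1201 to 6400, and in MM.1s, from 2356 to 7828 (1.11, SE 0.34, adjusted p = 0.141). KMS11 gave the largest change for ATF3, MYC, PMAIP1, CDKN1A and GADD45A, none of which passed the test over the 4 lines.

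Other signalling lists had few or no calls. Among 14 MAP kinase phosphatases and SPRY genes limma called none (2 higher and 3 lower at an unadjusted p under 0.05). DUSP6, which turns off ERK, went from 1057, 4636, 1555 and 1718 to 344, 339, 1663 and 193 in U266, MM.1s, 8226/S and KMS11, lower in 3 lines and level in 8226/S (-2.02, SE 0.50, adjusted p = 0.0792). Of 19 NF-kB and 13 IL-6 and STAT3 genes none was called, with 1 higher and 3 lower at an unadjusted p under 0.05 in each list. Among 24 interferon genes PSMB9, an immunoproteasome subunit, fell by 0.70 (SE 0.13), and among 13 Kruppel-like factors KLF13 fell by 0.61 (SE 0.11).

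PML, whose protein is the direct target of arsenic in acute promyelocytic leukaemia, was not called (-0.43, SE 0.16, adjusted p = 0.208), and of 17 genes of PML bodies and SUMO limma called none, with 2 higher and 6 lower at an unadjusted p under 0.05. RARA, the retinoic acid receptor that is fused to PML in that leukaemia, fell by 1.0 (SE 0.14, adjusted p = 0.0179), from 752, 3058, 1102 and 2290 to 363, 1562, 697 and 851 in U266, MM.1s, 8226/S and KMS11. RARA was chosen after its values were seen. Against control 1 both PML (0.85) and RARA (0.51) took the opposite sign. Of 14 zinc finger stress and histone genes 2 rose, ZNF165 and ZBTB43, and of 19 cytoskeleton genes 1 rose, the tubulin TUBB2A, by 1.68 (SE 0.27).

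Some of the largest changes were of genes outside these lists. LINC00304, a long noncoding RNA, went from 73.5, 5.87, 18.0 and 69.2 to 7046, 10895, 7334 and 7736 in U266, MM.1s, 8226/S and KMS11. No untreated array gave a signal above the median of its probe sets, all treated arrays did, and the change was 7.0 (SE 0.32, adjusted p = 8.68e-05). Its 2 other tested probe sets had the same sign and were not called. GPAT3, an acyltransferase that starts triglyceride synthesis, rose by 2.74 (SE 0.33, adjusted p = 0.00806), from 67.6 to 543 in U266 and from 157 to 2901 in KMS11. KLHL21, a substrate adaptor of a ubiquitin ligase, rose by 2.07 (SE 0.25) with no overlap and was chosen after its values were seen.

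Among the other large falls, the Notch-pathway repressor HES6 fell by 1.54 (SE 0.30), the antisense transcript PSMB8-AS1 by 1.52 (SE 0.27), NUDT22 by 1.5 (SE 0.26), the mitochondrial topoisomerase TOP1MT by 1.44 (SE 0.20), GRAMD1A by 1.40 (SE 0.23), the glycine cleavage enzyme GLDC by 1.38 (SE 0.15) and PAGR1 by 1.34 (SE 0.23). PSMB8-AS1 was the one of these 7 whose treated and untreated signals did not overlap, from 1385, 586, 469 and 312 to 201, 225, 245 and 107. GRAMD1A, which moves cholesterol to the ER, was dim in treated 8226/S at 10.4. TOP1MT and GRAMD1A each had 1 other tested probe set, which had the opposite sign and was not called.

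Markers of other cell types had no calls. Of 8 tested markers of T, natural killer and myeloid cells and 11 of stroma, endothelium and erythroid cells limma called none, with 0 and 1 at an unadjusted p under 0.05. The first set, over its 13 genes, summed to between 1412 and 1709 untreated and between 1334 and 1819 after ATO. The second, which also holds the epithelial genes EPCAM and KRT18, summed to between 3767 and 14664 untreated and between 4172 and 18048 after ATO. Its highest untreated sum was in 8226/S, where EPCAM gave 6542 and KRT18 4866, so that sum is not a measure of stroma, endothelium or erythroid cells. Untreated EPCAM differed by line, with 2380 in KMS11, 10.3 in U266 and 55.6 in MM.1s. The part of other cells in the results was not tested, and in such bulk samples fewer cells of a type and less RNA per cell cannot be told apart.

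The later ATO arrays give the signals at 24 and 48 h. Between 6 and 24 h of ATO 16 genes were called (0.104%). Of the 250 genes that had risen by 6 h, 10 were called lower at 24 h than at 6 h, and the median difference over the 250 was -0.34. The 250 genes were called from the same 6 h arrays, which by itself favours lower values at 24 h. No fall over time is therefore read from that count or that median. The 10 included the heat shock genes DNAJB1 and ZFAND2A, the metallothioneins MT1F and MT1E, the cold-shock protein RBM3 and the mitochondrial ribosome protein MRPL18. DNAJB1 went from 18936, 7901, 15119 and 11844 at 6 h to 6846, 6003, 5762 and 4548 at 24 h in U266, MM.1s, 8226/S and KMS11, a difference of -1.16 (adjusted p = 0.0442), and was at 4672 to 5347 by 48 h. ZFAND2A differed by -1.41 (adjusted p = 0.0203) and MT1F by -1.43 (adjusted p = 0.00124). The number of calls rests on few arrays: without U266 or without KMS11 it was 1, and without 8226/S it was 34.

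HSPA6 gave 174, 561, 131 and 658 at 24 h in U266, MM.1s, 8226/S and KMS11, and its difference of -2.65 missed the threshold (adjusted p = 0.0624). MM.1s, at 775 at 6 h, was the line closest to its own 6 h value. BAG3 gave 2880, 3575, 2909 and 2249 at 24 h (difference -1.47, adjusted p = 0.0606). HMOX1 was between 25091 and 31285 at 24 h and between 22899 and 32912 at 48 h, with a difference of -0.04 from 6 to 24 h (adjusted p = 0.901). MT2A gave 13918 to 32800 at 24 h and 13952 to 32864 at 48 h, still above each untreated array. INSIG1 was at 965, 1035, 3432 and 4260 at 24 h. Of the 147 genes that had fallen, TBCK was the one called higher at 24 h, by 1.04 (adjusted p = 0.0442). The 147 genes were also called from the same 6 h arrays, which favours higher values at 24 h.

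**Figure D3:**
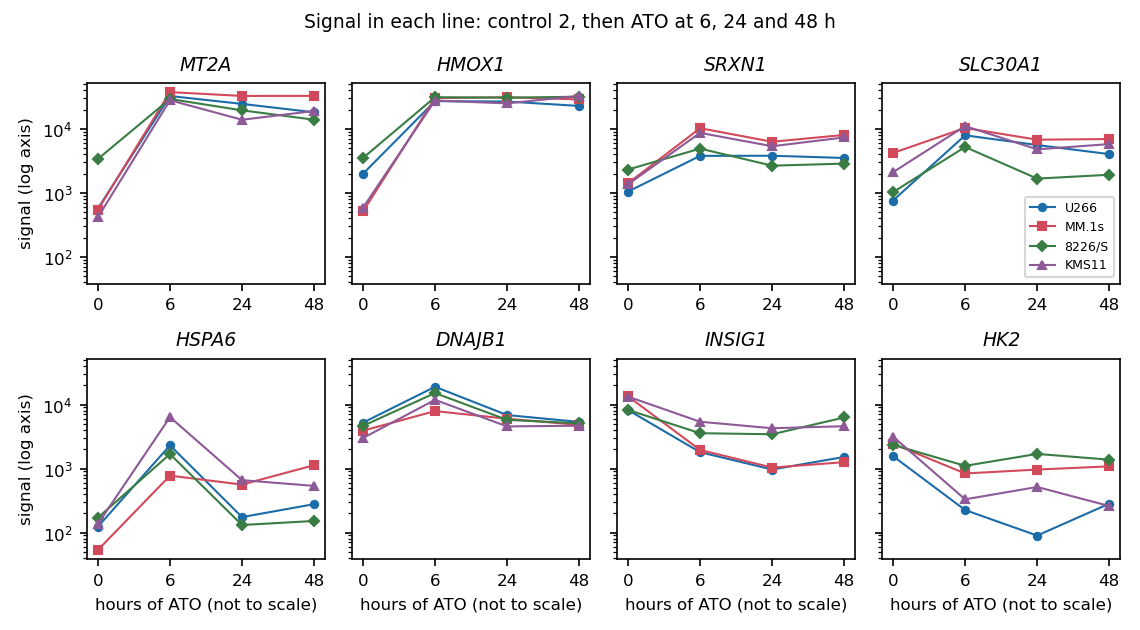
Signal of 8 genes in each line in control 2 (0 h) and after 6, 24 and 48 h of ATO, on a log axis, with 1 array per point and the hours not drawn to scale. MT2A and HMOX1 stay high to 48 h, DNAJB1 and HSPA6 peak at 6 h in most lines, and INSIG1 and HK2 stay below their untreated signal.

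DAR at 6 h, set against its own control 1, gave 783 higher genes (5.07%) and 685 lower genes (4.44%). This comparison shares no array with that of ATO. Of the 250 genes that rose with ATO, 125 (50%) also rose with DAR, which is 16% of the rises with DAR, and 223 (89.2%) had the same sign. Of the 147 falls with ATO, 44 (29.9%) also fell with DAR, which is 6.4% of the falls with DAR, and 120 (81.6%) had the same sign. The share of all tested genes with the same sign for both compounds is not given here. Doses, array sets and controls differ between the compounds, and 45.6% of genes differed between control 2 and control 1, so the direct test sets each change against its own control.

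That test, over 16 arrays, found 159 genes whose change differed (1.03%), among them 25 of the 250 rises and 19 of the 147 falls. The ATO and control 2 arrays in it are those from which the 250 and 147 genes were called. Genes called with ATO are thus favoured in this test, and their share is not set against that of all genes. The metallothioneins were among the largest of these differences. MT1H changed by 7.16 with ATO and by -0.01 with DAR, a difference of 7.16 (SE 0.72, adjusted p = 0.00051), and MT2A by 5.22 and 0.27, a difference of 4.96 (SE 0.52, adjusted p = 0.000635). In the DAR arrays MT2A stood at 357, 300, 693 and 373, against 186, 188, 888 and 384 in their controls. MT1E was the one metallothionein called with DAR, at 1.28 (adjusted p = 0.0264), and its change with ATO was larger by 2.98 (adjusted p = 0.00822). SLC30A1 (difference 2.24, adjusted p = 0.0109) and LINC00304 (difference 5.80, adjusted p = 0.000498) also changed more with ATO.

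HMOX1 rose with DAR by 2.92, from 664 to 2969 in MM.1s and from 2535 to 24626 in U266, and the difference from ATO of 1.63 was not called (adjusted p = 0.209). HSPA6 rose with DAR by 6.29, to between 2335 and 10412, and its difference of -2.39 was not called (adjusted p = 0.0683). BAG3 changed by 2.46 with ATO and 2.88 with DAR, and HSPH1 by 1.43 and 1.55. SRXN1 (difference 1.37, adjusted p = 0.0435) and GSR (difference 1.19, adjusted p = 0.0305) changed more with ATO, and GCLM (difference 1.10, adjusted p = 0.102) and NQO1 (difference 1.45, adjusted p = 0.0547) were not called. The proteasome subunit PSMD11 changed by 0.83 with ATO and 0.12 with DAR (difference 0.71, adjusted p = 0.0344), and its signal in control 2 was itself below that in control 1 by a log2 difference of -0.73. P4HA2, a prolyl hydroxylase of collagen, went the other way, with 1.29 against 3.65 (difference -2.36, adjusted p = 0.0153).

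FOS changed by -2.96 with ATO and by 1.31 with DAR (difference -4.27, adjusted p = 0.0103), and missed the threshold with DAR (adjusted p = 0.0577). Its controls were themselves far apart. FASN fell with both, by 1.62 and 0.74 (difference -0.88, adjusted p = 0.0303), and INSIG1 by 1.86 and 0.72 (difference -1.14, adjusted p = 0.114). CD48 fell with ATO and changed by 0.09 with DAR (difference -1.69, adjusted p = 0.00447). IRF4 changed by -1.08 with each compound. The genes called in opposite directions were NBN and UBQLN1, higher with ATO and lower with DAR, and B3GALT6, RARA, MSL1, RHOU and CSNK1E, lower with ATO and higher with DAR. RARA changed by -1.0 and 0.74 (difference -1.74, adjusted p = 0.00335), RHOU, a small GTPase, by -1.10 and 1.18, and NBN, which senses DNA breaks, by 0.58 and -0.52. Against control 1 the change with ATO was 0.51 for RARA, 0.05 for RHOU and -0.16 for CSNK1E, none of them called. For NBN it was 0.65 (adjusted p = 0.00389). The part of the gap between the controls in these opposite directions was not tested. The count of 159 was 80 when each array was centred on its median, and 11 without MM.1s.

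**Figure D4:**
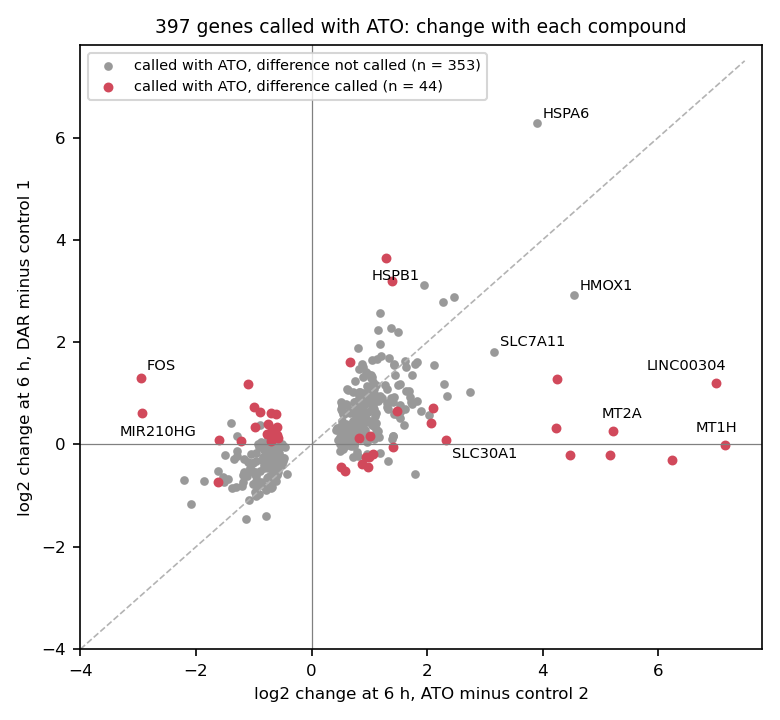
Change at 6 h with ATO (horizontal axis) and with DAR (vertical axis) for the 397 genes called with ATO, each against its own control, as differences of log2(signal + 29), with the dashed line marking equal change. Genes whose change differed by the direct test, which reuses the arrays that called the 397, are in red. The metallothioneins and LINC00304 lie along the horizontal axis at the right.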

How the data were processed

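RNA from 4 myeloma cell lines was measured on Affymetrix HG-U133 Plus 2.0 arrays. The deposited values are linear signal intensities per probe set, made with GCOS per the submitters' processing notes. The version of GCOS is not stated there. Each array had been scaled to a trimmed mean near 500. For this report 29 was added before log2, and 36706 of 54613 probe sets, those above the array's 50th percentile on at least 4 of 28 arrays, were tested with limma 3.58.1 in R 4.3.3 (lmFit, eBayes with a variance trend, cell line as a block, 8 arrays). Benjamini-Hochberg adjustment ran over all probe sets, and a gene is its brightest probe set with 1 symbol. Of the probe sets 41091 had 1 symbol, 1801 several and 11721 none, and 62 array controls were left out. The scripts were tested on simulated data.

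The labels pair arrays by cell line, and deviations of the 2 arrays of a line from their group means correlated at 0.686 to 0.805, against at most -0.068 between lines. Changes with ATO and DAR were compared over 16 arrays, each compound against its own control.

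The members and gene lists were chosen with earlier results of these data known. Named genes are the 5 markers, the 15 largest called rises and falls, up to 4 members of each list by p, a short set named whatever its values, and probe sets with no single symbol. Chosen after their values were seen were GCLC, GSR, OSGIN1, PIR, ME1, HSPB1, GABARAPL1, VCP, SELENOK, IDI1, HMGCS1, ACLY, KLHL21, RARA, RBM3, MRPL18, TBCK, P4HA2, NBN, UBQLN1, B3GALT6, MSL1, RHOU, CSNK1E, CD38, EPCAM and KRT18. The alternatives changed the offset, scaling, filter, probe set rule, control, spread and lines. The fit over 16 arrays with no variance trend was chosen after seeing the data.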

Additional observations from a re-analysis of the deposited data

Results flagged for a closer look

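In 4 of the 116 genes checked, the change of 1 line stood apart from the other 3 by Dixon's criterion. Chance meets it in about 1 group in 20, so this share is no larger than chance would give. MT2A changed by 3.10 in 8226/S and by 5.77 to 6.04 in the others. MIR210HG changed by -0.24 in 8226/S and by -4.18 to -3.51 in the others. KLF13 changed by -0.26 in MM.1s against -0.78 to -0.69, and TBCK by -0.38 in 8226/S against -0.89 to -0.87.

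From 6 to 24 h of ATO, limma called lower MT1E (-1.06), MT1F (-1.43), DNAJB1 (-1.16), ZFAND2A (-1.41), ATF3 (-1.01), RBM3 (-1.12) and MRPL18 (-0.76), and higher TBCK (1.04).

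The change with ATO exceeded that with DAR, by limma's test of the difference, in MT1H (7.16), MT1X (6.54), LINC00304 (5.80), MT1HL1 (5.37), MT2A (4.96), MT1G (4.68), MT1F (3.90), MT1E (2.98), SLC30A1 (2.24), KLHL21 (1.65), SRXN1 (1.37), GSR (1.19), NBN (1.10) and PSMD11 (0.71). It was below that with DAR in FOS (-4.27), MIR210HG (-3.54), P4HA2 (-2.36), RHOU (-2.28), RARA (-1.74), CD48 (-1.69), CSNK1E (-1.32) and FASN (-0.88). Doses, array sets and controls differ between the compounds, and their part in these differences was not tested.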

How the results depend on the processing

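With 1 array per line and condition, the count of calls depends on the estimate of spread and on the control. Leaving out 1 line could not turn the sign of a called gene, since each moved in 1 direction in the 4 lines. The filter, the variance trend and the block do not enter the size of the change. With control 1 in place of control 2, the sign turned for 15 of the 106 called genes described here. The 397 genes (686 probe sets) became 147 (273) with no filter, 785 (1386) when 16 arrays shared the spread, 6570 (14303) with control 1 in place of control 2, 114 (207) with both controls, 2 (5) with no replicate block and 2 (5) with no variance trend. The mean of all probe sets of a gene gave 178 genes. Leaving out 1 line gave 61 to 220 genes (97 to 401 probe sets). With no variance trend over 16 arrays, an alternative chosen after seeing the data, there were 346 genes. Of the 106 called genes described here, 103 kept their call under quantile normalization, 89 with an offset of 1, 58 with no filter and 35 without any 1 line. The 16 genes between 6 and 24 h became 6 under quantile normalization, 9 with median centring and 1 to 34 without 1 line. The 159 genes that differed between the compounds became 80 with median centring and 11 to 44 without 1 line, and the 1468 called with DAR became 953 and 633 to 1408. The cause of these shifts was not tested. With control 1, the sign turned for WARS1 (-0.16), PSMC1 (-0.16), PSMC2 (-0.37), PSMC6 (-0.42), FADD (-0.13), FOS (0.22), PFKFB4 (0.40), PFKP (0.25), FASN (1.11), SQLE (0.25), NSD2 (0.42), BCL2L1 (0.32), CASP10 (0.85), RARA (0.51), RHOU (0.048) and the uncalled PML (0.85). With both controls it turned for CASP10 (0.050) and PML (0.21), and without KMS11 for the uncalled CDKN1A (-0.19, and up to 0.90 without 1 other line). Signals near the bottom of the scale, such as MIR210HG in 8226/S, limit the size of a fall that can be seen.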
